A study of Mus musculus with 18 samples.

Results

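Part of the open chromatin away from promoters in these macrophages lay in tight groups of peaks. When distal ATAC-seq peaks were sorted by position and neighbours on a chromosome were joined where the gap between them was at most 2000 bp, 29686 of the 157614 distal peaks (18.8%) lay in stretches of at least 6 peaks. There were 3393 such stretches among the 84266 stretches of any size, single peaks included. They are called clusters here, and their peaks clustered peaks. The rule used positions alone, and every one of the 29686 peaks is accounted for: 29684 passed the filter on low counts and 2 did not.

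The peaks come from bone marrow-derived macrophages (BMDMs) of 3 Il10-/- mice (C57BL/6J, male, 12 weeks old), assayed by ATAC-seq, in which a transposase cuts accessible DNA and the cut sites are sequenced. There were 18 libraries, 3 numbered replicates for each of 6 conditions: Unstimulated (untreated, then PBS), (+)-JQ1 at 500 nM, IL-10 at 10 ng/mL, LPS at 50 ng/mL, LPS + (+)-JQ1 and LPS + IL-10. The labels and methods do not say which library came from which mouse. Each treatment began 12 h before LPS or PBS, which stayed on for 4 h, for 16 h in all. The study's methods also name a vehicle as a pre-treatment before LPS, and describe the Unstimulated cells as untreated. The labels call the LPS group untreated. The part of vehicle in comparisons with Unstimulated was not tested. The questions were how LPS changed the clusters, and how (+)-JQ1 and IL-10 each changed them with and without LPS. Both are called inhibitors here for short, although IL-10 is a cytokine and only (+)-JQ1 is an inhibitor compound. Every library, controls included, lacks a functional Il10 gene, so the cells could not make IL-10 themselves, and IL-10 was added in 2 of the conditions.

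Distal accessible sites are often enhancers, and groups of them packed into a short interval commonly lie in and around genes that define a cell type or respond strongly to a signal. LPS binds Toll-like receptor 4 and activates NF-kappaB, AP-1 and, through secreted interferon, STAT and IRF proteins. BET proteins read acetylated histones through their bromodomains and are dense at such groups of enhancers, and (+)-JQ1 is a drug-like compound that blocks those domains. IL-10 acts through STAT3 and restrains the inflammatory genes of macrophages.

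Libraries held between 12020526 and 25908198 counts in peaks (median 19819132). All 9 macrophage genes checked had a promoter peak (summed 197 to 457 CPM per library, CPM being read counts scaled to a common library size), against 1 of 5 T cell, 3 of 4 B cell, 3 of 4 neutrophil, 2 of 3 fibroblast and 3 of 3 epithelial genes, with summed levels of 14.2 to 30.6, 11.3 to 23.3, 22.9 to 44.1, 41.4 to 60.6 and 7.70 to 15.4 CPM. Single genes of other cells reached the level of macrophage genes such as Itgam (19.6 CPM) and Emr1 (28.6 CPM): Lck was at 24.5, Elane at 28.6, Pdgfra at 30.0 and Col1a1 at 20.9 CPM, while Cd3e, Cd3d, Cd4, Cd8a, Ly6g and Col1a2 had no promoter peak. The part of other cells in any result was not tested. The TMM scaling factors, which correct for unequal composition between libraries, were 1.24, 1.15 and 1.04 in the Unstimulated libraries and 0.896 to 1.05 elsewhere, and scaling by total counts in place of TMM moved the median over all peaks of the log2 fold-change from Unstimulated from -0.03, -0.09 and -0.05 to -0.26, -0.37 and -0.26 for LPS, (+)-JQ1 and IL-10. Replicate 1 of LPS + (+)-JQ1 stood apart from the other 2 libraries in several clusters named here, and values without it are given at Cmpk2, Cd40, 3010026O09Rik, Csf1, Rasgef1b, Alcam, Asap1, Abca1 and Tnfrsf1b.

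Sequences of 6 peaks are shown because each is the peak that changed most in a cluster at one end of a comparison. Each line holds the central 200 bp of 1 peak on the plus strand of mm9. Capitals mark a match to the C/EBP letters TTGCNNAA, and no other line holds a match to the motifs searched.
Cmpk2 cluster, peak 5 of 6, raised by LPS, chr12:27166877-27167076: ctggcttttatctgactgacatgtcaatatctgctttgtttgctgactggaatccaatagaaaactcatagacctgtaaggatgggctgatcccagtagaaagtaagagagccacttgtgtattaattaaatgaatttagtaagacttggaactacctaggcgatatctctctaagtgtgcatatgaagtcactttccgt
Il7r cluster, peak 5 of 7, lowered by LPS, chr15:9440492-9440691: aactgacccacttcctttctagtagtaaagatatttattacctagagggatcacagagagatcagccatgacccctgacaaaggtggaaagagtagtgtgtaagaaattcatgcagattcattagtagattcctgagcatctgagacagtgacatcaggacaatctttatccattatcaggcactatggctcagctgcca
Aoah cluster, peak 2 of 7, lowered by (+)-JQ1 under LPS, chr13:20938598-20938797: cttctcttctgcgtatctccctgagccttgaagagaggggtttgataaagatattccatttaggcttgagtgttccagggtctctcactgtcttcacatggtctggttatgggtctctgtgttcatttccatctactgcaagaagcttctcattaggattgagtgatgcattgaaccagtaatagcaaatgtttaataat
Hist1h4j cluster, peak 3 of 7, raised by (+)-JQ1 under LPS, chr13:21833118-21833317: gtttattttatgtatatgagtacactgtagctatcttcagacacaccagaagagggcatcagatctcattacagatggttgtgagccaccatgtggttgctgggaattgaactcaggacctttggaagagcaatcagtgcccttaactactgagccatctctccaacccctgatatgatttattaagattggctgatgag
Csf1 cluster, peak 4 of 7, lowered by IL-10 under LPS, chr3:107540450-107540649: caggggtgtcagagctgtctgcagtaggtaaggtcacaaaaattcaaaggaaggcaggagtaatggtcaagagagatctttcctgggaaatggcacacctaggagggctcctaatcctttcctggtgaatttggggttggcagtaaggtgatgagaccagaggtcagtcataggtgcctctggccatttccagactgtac
Gm5150 cluster, peak 8 of 8, raised by IL-10 under LPS, chr3:15885102-15885301: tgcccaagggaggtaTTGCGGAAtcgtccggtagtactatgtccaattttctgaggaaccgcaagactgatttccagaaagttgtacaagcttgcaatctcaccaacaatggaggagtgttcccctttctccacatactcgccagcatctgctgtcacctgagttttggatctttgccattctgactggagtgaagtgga
The Il7r, Aoah and Gm5150 windows are intronic and the Cmpk2, Hist1h4j and Csf1 windows intergenic by the GENCODE coding models. In the Cmpk2, Il7r, Aoah and Csf1 windows each of the 171 words of 30 bases occurred once in the genome. In the Gm5150 window 67 of 171 did (39.2%), and in the Hist1h4j window 38 (22.2%), with one word present at 32795 places. Only uniquely mapped reads were kept when the counts were made, so levels in windows of the last kind are uncertain.

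Clusters held 6 to 56 peaks (median 7) and spanned 5.58 to 192 kb (median 15.2 kb), 63.8 Mb in all, and peaks covered a median of 75.9% of a span. Most were small: 2547 held 6 to 9 peaks, 759 held 10 to 19 and 87 held 20 or more. The strongest peak carried a median of 38.2% of a cluster's signal and was the first or last peak in 22.0% of clusters. Of the 3393 clusters, 2676 (78.9%) overlapped a protein-coding gene, 2592 (76.4%) had a transcription start site within 25 kb, and 155 (4.57%) held a promoter peak between their distal peaks. Chromosome 2 held the most clusters, 332, and the X chromosome held 20. Some genes hosted several, the most being 28 clusters and 246 peaks at the gene model Gm20388, then 12 and 123 at Dennd1a. Among the others were 8 and 93 at Wdfy3, 7 and 103 at Ppm1h, 7 and 95 at Fgfr2 and 5 and 106 at Slco3a1. Runx1, a master regulator of blood cell formation, held 6 and 66. At the edge of the rule, the 1093 clusters of exactly 6 peaks and the 1885 stretches of exactly 5 left out resembled each other, with 23.6% and 20.3% higher with LPS.

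Clustered peaks were wider and stronger than the other 127928 distal peaks. The median width was 1139 bp against 866 bp and the median level 2.05 against 1.42 CPM, while GC content was close (45.8% against 45.6%). More of them lay in introns (64.1% against 51.3%) and fewer were intergenic (30.0% against 43.6%), and in stretches of 20 or more peaks 87.1% were intronic. Short motif matches in the central 200 bp were found in smaller shares of clustered peaks: PU.1 (GAGGAAGT), the letters bound by a master factor of myeloid cells, was found in 2.13% against 4.08% of windows, and AP-1 (TGANTCA) in 7.53% against 9.78%. The interferon-response letters GAAANNGAA were found in 6.34% against 7.43%, C/EBP in 8.27% against 9.20% and the kappaB motif in 3.68% against 3.78%. Over all distal windows the 5 shares were 3.71%, 9.36%, 7.22%, 9.02% and 3.76%. Both strands were searched, and overlaps between motifs were allowed. Since the peaks differ in width, a fixed central window covers less of a wide peak, and the part of width in these shares was not tested.

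The share of a library's distal counts that fell in clustered peaks separated the libraries with LPS from those without. It was 25.3%, 25.3% and 25.7% in the 3 Unstimulated libraries and 28.4%, 28.8% and 28.5% with LPS. The groups did not overlap, and the 9 libraries without LPS (25.3% to 26.0%) lay below the 9 with it (27.4% to 28.8%). The means were 25.4% ± 0.23 and 28.6% ± 0.20 (SD, n = 3), 3.17 percentage points apart, and those of (+)-JQ1 and IL-10 alone were 25.8% ± 0.14 and 25.9% ± 0.06. With LPS + (+)-JQ1 the share was 28.4%, 27.4% and 27.6%, the first value belonging to replicate 1 and lying at the level of LPS alone, and with LPS + IL-10 it was 28.5% ± 0.26, which overlapped LPS. Within sequencing lane 5 the share was 25.3% and 25.3% in 2 Unstimulated libraries and 28.4% in 1 LPS library, and within lane 6 it was 25.7% in 1 and 28.8% and 28.5% in 2. The share is a ratio within a library and does not depend on the scaling. It does depend on which peaks were called. These were merged over all conditions, LPS included, so which peaks count as clustered is not independent of the groups compared. As a test over 3 against 3 libraries cannot go below 0.10 by exact permutation, no p-value is given.

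**Figure D1:**
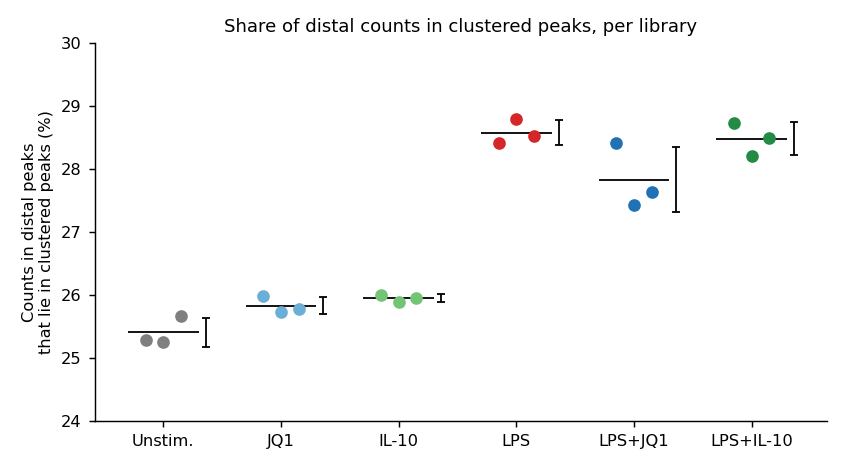
Share of distal ATAC-seq counts in clustered peaks (percent, y axis, not starting at 0) for each of the 18 libraries, grouped by condition, with a line at each mean and a bar of 1 SD to each side (n = 3). The 9 libraries with LPS lie between 27.4% and 28.8%, above the 9 without it at 25.3% to 26.0%.

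A larger share of clustered peaks than of other distal peaks opened with LPS. A differentially accessible region (DAR) had an FDR below 0.05 in the edgeR quasi-likelihood test over all 194230 tested peaks and an absolute log2 fold-change above 0.5. Of the clustered peaks 5645 (19.0%) were higher with LPS and 2585 (8.71%) lower, against a background of 9.31% higher and 11.5% lower among distal peaks in stretches of 1 to 5, and of 11.7% and 10.2% among all tested peaks. When counts were summed over each stretch, 902 of the 3393 clusters (26.6%) were higher and 288 (8.49%) lower, against 9.96% and 13.3% of smaller stretches. Of the 80814 smaller stretches 52838 were single peaks, so clusters summed more counts, with a smaller counting error. The median absolute log2 fold-change was 0.347 over clusters and 0.391 over smaller stretches. Under LPS it was 0.180 against 0.249 for (+)-JQ1 and 0.206 against 0.283 for IL-10. The part of count level in the cluster shares was not tested, here and in the comparisons below. Scaling by total counts gave 3706 higher and 4944 lower clustered peaks, and offsets fitted by loess gave a share of higher calls of 68.0% against 68.6%. For summed clusters total counts gave 534 higher and 572 lower and loess 536 and 542. The clustered share raised was still the larger, at 12.5% against 5.41% by total counts and 17.6% against 9.39% by loess, while for summed stretches loess gave 16.0% of clusters lower against 9.70% of smaller stretches, the other order. Leaving out the libraries of replicate 1 or replicate 2 cut the lower calls to 1688 or 1427.

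Under LPS, the clustered peaks that (+)-JQ1 changed were mostly lower, although most peaks were not called. Against LPS alone, 568 clustered peaks (1.91%) were higher and 2253 (7.59%) lower with LPS + (+)-JQ1, against a background of 1.70% and 2.61% in stretches of 1 to 5 and of 1.74% and 3.49% among all tested peaks. Of the clusters, 56 (1.65%) were higher and 311 (9.17%) lower, against 1.89% and 3.14% of smaller stretches. The median log2 fold-change was -0.04 over clustered peaks and 0.02 over clusters. The share of lower clustered peaks was 7.47% to 7.67% under the 4 scalings tried. IL-10 under LPS changed similar numbers of clustered peaks in each direction, 2055 (6.92%) higher and 2122 (7.15%) lower against 3.99% and 4.07% in stretches of 1 to 5 and 4.26% and 4.51% of all tested peaks, and 254 (7.49%) and 291 (8.58%) clusters against 4.39% and 5.04%. By total counts, 59.3% of these peak calls were higher in place of 49.2%, and 58.3% of the cluster calls in place of 46.6%. Leaving out replicate 2 gave 188 higher and 1108 lower clustered peaks for LPS + (+)-JQ1 and 1251 and 1172 for LPS + IL-10, and leaving out replicate 3 gave 353 and 1349 for LPS + (+)-JQ1. Both comparisons are made against the same 3 LPS libraries.

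Without LPS the calls were fewer and their direction rested on the scaling. (+)-JQ1 alone raised 1743 clustered peaks (5.87%, background 3.99% in stretches of 1 to 5 and 7.85% of all tested peaks) and lowered 1313 (4.42%, background 3.15% and 3.15%), but total counts gave 385 and 5425, and loess left 22.6% of calls higher in place of 57.0%. IL-10 alone raised 1576 (5.31%, background 4.10% and 5.16%) and lowered 958 (3.23%, background 4.00% and 3.50%), with 493 and 2720 by total counts and 40.1% of calls higher by loess in place of 62.2%. The median log2 fold-change of clustered peaks was -0.15 with (+)-JQ1 and -0.08 with IL-10, although more of the calls were higher. For whole clusters the counts were 201 (5.92%) higher and 128 (3.77%) lower with (+)-JQ1, and 144 (4.24%) and 99 (2.92%) with IL-10, against 3.64%, 2.88%, 4.05% and 4.59% of smaller stretches. Total counts gave 6 and 696 clusters for (+)-JQ1 and 31 and 359 for IL-10, and loess 9 and 432, and 24 and 318. Leaving out replicate 2 gave 515 and 296 clustered peaks for (+)-JQ1 and 344 and 135 for IL-10, and leaving out replicate 1 gave 622 lower peaks for (+)-JQ1 and 985 and 200 for IL-10.

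Whether an inhibitor acted differently with LPS was tested by the interaction term, the log2 ratio of its fold-change with LPS to that without. For (+)-JQ1, 258 clustered peaks (0.869%) had a higher and 781 (2.63%) a lower term, against 0.608% and 1.03% in stretches of 1 to 5 and 0.649% and 3.19% of all tested peaks. Of clusters, 58 were higher (1.71%) and 226 lower (6.66%), against 0.453% and 1.06% of smaller stretches. For IL-10, 1016 clustered peaks (3.42%) were higher and 1466 (4.94%) lower, against 1.86% and 2.95%, and 2.01% and 5.90% of all tested peaks, with 194 clusters higher (5.72%) and 342 lower (10.1%), against 1.85% and 3.39%. Since these terms hold the Unstimulated libraries, their direction rested on the scaling too: total counts gave 944 higher and 275 lower clustered peaks for (+)-JQ1 and 2834 and 696 for IL-10. Of clusters, total counts gave 380 higher and 62 lower and loess 182 and 83 for (+)-JQ1, and 643 and 92, and 409 and 139, for IL-10. Leaving out replicate 2 left 8 and 40 clusters for (+)-JQ1 and 76 and 102 for IL-10, and 15 and 37 clustered peaks for (+)-JQ1 and 198 and 209 for IL-10, and leaving out replicate 1 left 53 and 296, and 370 and 929. Without replicate 3, 664 clustered peaks were higher for IL-10.

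The more peaks a stretch held, the larger the share of its peaks that LPS raised. It was 7.60% for single peaks, 9.35% in pairs, 11.4% in stretches of 3 to 5, 15.7% in 6 to 9, 22.0% in 10 to 19 and 32.1% in 20 or more. The share lowered by LPS was 12.8% for single peaks, 7.53% in stretches of 10 to 19 and 8.40% in the largest class. For LPS + (+)-JQ1 against LPS, lower calls went from 2.24% to 19.2% over the same classes. Higher calls showed no steady trend: 1.36% for single peaks, 2.05% in stretches of 3 to 5 and 0.986% (23 of 2332 peaks) in the largest class. With IL-10 under LPS higher calls rose from 3.12% to 12.0%. Lower calls went from 4.22% for single peaks to 3.91% in stretches of 3 to 5 and 17.8% in the largest class. The 2332 peaks of that class came from 87 stretches, and peaks of a stretch are not separate observations. By summed counts LPS raised 37 of the 87 (42.5%) and lowered 6 (6.90%). Under LPS, (+)-JQ1 lowered 14 (16.1%), and IL-10 raised 12 (13.8%) and lowered 16 (18.4%).

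**Figure D2:**
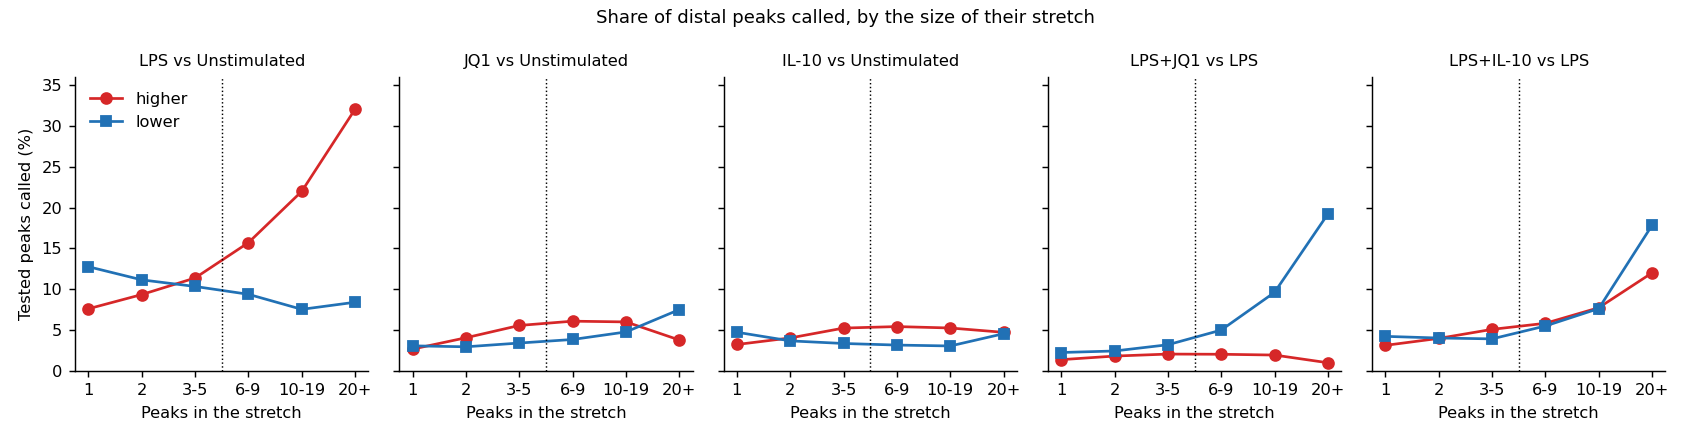
Percent of tested distal peaks called higher (red circles) or lower (blue squares) in each of the 5 comparisons, by the number of peaks in the stretch (x axis), with clusters to the right of the dotted line. The share raised by LPS climbs from 7.60% to 32.1%, and the share lowered by (+)-JQ1 under LPS from 2.24% to 19.2%.

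Strong peaks have a smaller counting error, so the comparison was repeated within 4 classes of peak level holding equal numbers of distal peaks, bounded at 0.893, 1.51 and 3.51 CPM. LPS raised 4.74%, 8.64%, 17.9% and 33.7% of clustered peaks from the weakest to the strongest class, against 2.77%, 4.75%, 10.0% and 21.4% of other distal peaks. (+)-JQ1 under LPS lowered 2.66% and 10.5% of clustered peaks in the weakest and strongest classes, against 1.18% and 4.42%. In each of these classes the clustered share was the larger one. A peak's level was its mean over all 18 libraries, those with LPS included. A peak that LPS opened could thus enter a higher class, and the classes are not independent of the changes compared. Summed stretches were not compared within classes of level. Peaks had been called per library and merged over all conditions, so a peak open in any 1 condition entered the union, and the number of peaks in a stretch is not independent of the conditions compared.

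Among clusters raised by LPS the steepest was next to Cmpk2, a mitochondrial nucleotide kinase gene induced by interferon, with the antiviral gene Rsad2 within 25 kb (chr12:27160538-27169604, 6 peaks). Its summed level was 8.03, 7.64 and 4.60 CPM in the 3 Unstimulated libraries and 76.2, 83.3 and 89.0 CPM with LPS, a gap much wider than the spread of either group (log2 fold-change 3.62 ± 0.15 SE, FDR 6.97e-36). All 6 peaks were higher. With LPS it held 22.5, 48.6 and 35.8 CPM under (+)-JQ1 and 25.1, 19.6 and 25.9 CPM under IL-10, below every LPS library (-1.20, FDR 6.15e-12, or -0.98, FDR 2.24e-09, without replicate 1, and -1.81, FDR 7.23e-20). Without LPS it stayed between 2.61 and 8.03 CPM in all 9 libraries.

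The cluster inside Art3 (chr5:92767085-92777625, 6 peaks) lies 0.283 kb from the start of Cxcl10, a chemokine that draws T cells, and near Cxcl9. It held 9.44, 7.69 and 7.18 CPM in Unstimulated libraries and 73.7, 70.9 and 87.2 CPM with LPS (log2 fold-change 3.26 ± 0.13 SE, FDR 4.02e-38), and all 6 peaks rose. All 6 peaks fell under LPS + (+)-JQ1 (36.1, 34.2 and 29.7 CPM, log2 fold-change -1.22, FDR 4.22e-15) and all 6 under LPS + IL-10 (31.5, 23.1 and 29.9 CPM, -1.45, FDR 7.76e-19). Neither inhibitor returned the cluster to the Unstimulated range of 7.18 to 9.44 CPM.

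The cluster at Cd40, the receptor through which T cells activate macrophages, had 8 peaks (chr2:164889768-164904622). Levels were 22.0, 21.8 and 18.6 CPM without stimulation and 212, 182 and 191 CPM with LPS (log2 fold-change 3.23 ± 0.12 SE, FDR 3.21e-40). They were 108, 67.8 and 65.9 CPM with LPS + (+)-JQ1, the library of replicate 1 being the high one, with a log2 fold-change of -1.28 (FDR 2.37e-17), or -1.54 without that library. With LPS + IL-10 they were 57.7, 44.0 and 53.2 CPM (log2 fold-change -1.92 ± 0.11 SE, FDR 1.11e-26). All 8 peaks rose with LPS and all 8 fell with each inhibitor.

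The clusters that LPS closed were led by Il7r, the receptor chain for interleukin 7 (chr15:9431770-9444641, 7 peaks). It fell from 15.5, 13.7 and 14.3 CPM to 3.26, 3.30 and 3.76 CPM (log2 fold-change -2.08 ± 0.17 SE, FDR 1.75e-18), with 6 of 7 peaks lower. Both inhibitors lowered it without LPS as well, to 6.14, 6.65 and 5.23 CPM with (+)-JQ1 (log2 fold-change -1.28 ± 0.16 SE, FDR 7.29e-09) and to 6.64, 7.05 and 6.62 CPM with IL-10 (log2 fold-change -1.10 ± 0.15 SE, FDR 1.56e-07). The 3 Unstimulated libraries lay above every library of the other conditions. At Fam82b, near Cpne3 (chr4:19516676-19530288, 6 peaks), levels went from 18.7, 23.0 and 30.1 to 5.97, 5.39 and 7.76 CPM (log2 fold-change -1.92 ± 0.15 SE, FDR 7.74e-20). At Gm10521, with a start site of the lymphocyte receptor gene Slamf6 within 25 kb (chr1:173826408-173846286, 8 peaks), they went from 31.4, 30.3 and 41.8 to 10.4, 10.3 and 10.8 CPM (log2 fold-change -1.72 ± 0.12 SE, FDR 2.38e-21). In bulk libraries a lower level in each cell and fewer cells with the site open cannot be told apart, here and in every comparison.

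The clusters that (+)-JQ1 lowered most under LPS were at an enzyme that inactivates LPS and at interferon-induced genes. The intronic cluster of Aoah, the acyloxyacyl hydrolase (chr13:20936820-20952693, 7 peaks), held 13.2, 8.46 and 6.08 CPM unstimulated, 43.5, 48.2 and 44.9 CPM with LPS and 11.7, 9.55 and 12.7 CPM with LPS + (+)-JQ1 (log2 fold-change -2.01 ± 0.13 SE, FDR 1.60e-22). All 7 peaks fell, and the summed level was within the unstimulated range. With LPS + IL-10 it held 47.0, 41.6 and 40.8 CPM, which overlapped LPS (-0.08, FDR 0.751).

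At Oasl2, a member of the oligoadenylate synthetase family (chr5:115356060-115371471, 9 peaks), LPS raised levels from 15.9, 17.1 and 14.2 to 77.0, 77.2 and 79.3 CPM and (+)-JQ1 held them at 19.6, 20.2 and 19.6 CPM (log2 fold-change -1.97 ± 0.11 SE, FDR 2.15e-27), with 7 of 9 peaks lower. IL-10 left 52.8, 41.1 and 45.2 CPM (-0.74, FDR 1.03e-08). The cluster at Gbp9, a guanylate-binding protein (chr5:105499306-105511216, 6 peaks), held 21.4, 22.3 and 20.7 CPM with LPS and 4.76, 6.60 and 5.04 CPM with LPS + (+)-JQ1 (log2 fold-change -1.97 ± 0.16 SE, FDR 1.42e-17). In the Oasl2 peak that fell most all 171 words of 30 bases were unique, while in that of Gbp9, one of a family of similar genes, 27 were (15.8%), so the level at Gbp9 is uncertain.

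Few clusters rose with (+)-JQ1 under LPS. The largest rise was at Hist1h4j in a histone gene array (chr13:21827642-21841157, 7 peaks), from 12.1, 10.7 and 13.5 CPM with LPS to 31.9, 33.1 and 38.0 CPM (log2 fold-change 1.51 ± 0.12 SE, FDR 1.11e-18). It also rose without LPS, from 17.9, 18.4 and 17.5 to 37.0, 34.9 and 40.5 CPM (log2 fold-change 1.07 ± 0.11 SE, FDR 5.62e-11), and its repeated sequence makes the level uncertain. A cluster by Sqstm1, which encodes an autophagy receptor, overlapping 3010026O09Rik (chr11:50000081-50013905), held 47.0, 60.9 and 39.1 CPM with LPS alone, 168, 81.9 and 76.9 CPM with LPS + (+)-JQ1 (log2 fold-change 1.14 ± 0.13 SE, FDR 6.83e-11) and 20.6, 25.3 and 21.2 CPM with LPS + IL-10 (-1.14, FDR 2.75e-10). Replicate 1 was again the high LPS + (+)-JQ1 library, and without it the rise was 0.69 (FDR 1.06e-06). At Ikbkg, the regulatory subunit of the IkappaB kinase, beside G6pdx (chrX:71643768-71660278, 10 peaks), (+)-JQ1 raised levels from 14.2, 13.1 and 11.9 to 23.5, 24.3 and 24.5 CPM (log2 fold-change 0.88 ± 0.12 SE, FDR 2.27e-08).

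IL-10 under LPS opened clusters at a glycolysis gene and at Gm5150. Pfkfb3 encodes the enzyme that makes the main activator of glycolysis (chr2:11379868-11400881, 12 peaks). Its cluster held 21.3, 18.6 and 15.9 CPM unstimulated, 24.2, 26.5 and 24.6 CPM with LPS and 143, 90.2 and 108 CPM with LPS + IL-10 (log2 fold-change 2.18 ± 0.12 SE, FDR 1.11e-27), and 11 of 12 peaks rose. In the peak that rose most 111 of 171 words were unique (64.9%), so its level is uncertain. IL-10 without LPS gave 16.9, 14.8 and 19.3 CPM, overlapping the unstimulated libraries, and (+)-JQ1 under LPS gave 14.0, 14.1 and 15.4 CPM, below all LPS libraries. Both clusters at Gm5150 went from low levels to several times higher: from 2.39, 2.50 and 2.81 to 16.7, 15.5 and 13.7 CPM at chr3:15875057-15885482 (log2 fold-change 2.58 ± 0.18 SE, FDR 2.33e-20) and from 2.71, 1.40 and 2.21 to 10.2, 13.4 and 9.51 CPM at chr3:15891445-15901724 (log2 fold-change 2.38 ± 0.20 SE, FDR 2.84e-16). Every one of their 8 and 7 peaks rose, and their sequence is partly repeated, with 39.2% and 63.7% of words unique in the peaks that rose most.

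IL-10 closed, besides Cd40, the clusters at Csf1, the macrophage growth factor, and Rasgef1b, an exchange factor for Ras-family proteins. Csf1 (chr3:107535294-107550631, 7 peaks) held 18.9, 13.6 and 12.5 CPM unstimulated, 53.3, 46.8 and 43.6 CPM with LPS and 7.92, 11.9 and 10.4 CPM with LPS + IL-10 (log2 fold-change -2.25 ± 0.14 SE, FDR 3.38e-24). The 3 LPS + IL-10 libraries lay below all 3 Unstimulated ones. (+)-JQ1 brought Csf1 to 32.1, 18.8 and 22.9 CPM under LPS (-0.98, FDR 1.17e-08, or -1.20, FDR 2.32e-11, without replicate 1). Rasgef1b (chr5:99627423-99660886, 11 peaks) held 86.7, 93.0 and 114 CPM unstimulated, 362, 386 and 349.5 CPM with LPS, 102, 102 and 86.0 CPM with LPS + IL-10 (log2 fold-change -1.92 ± 0.09 SE, FDR 4.94e-33) and 194, 164 and 165 CPM with LPS + (+)-JQ1 (-1.07, FDR 2.10e-18, or -1.15, FDR 2.76e-19, without replicate 1). All 11 peaks fell with IL-10, and the summed levels overlapped the unstimulated ones.

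**Figure D3:**
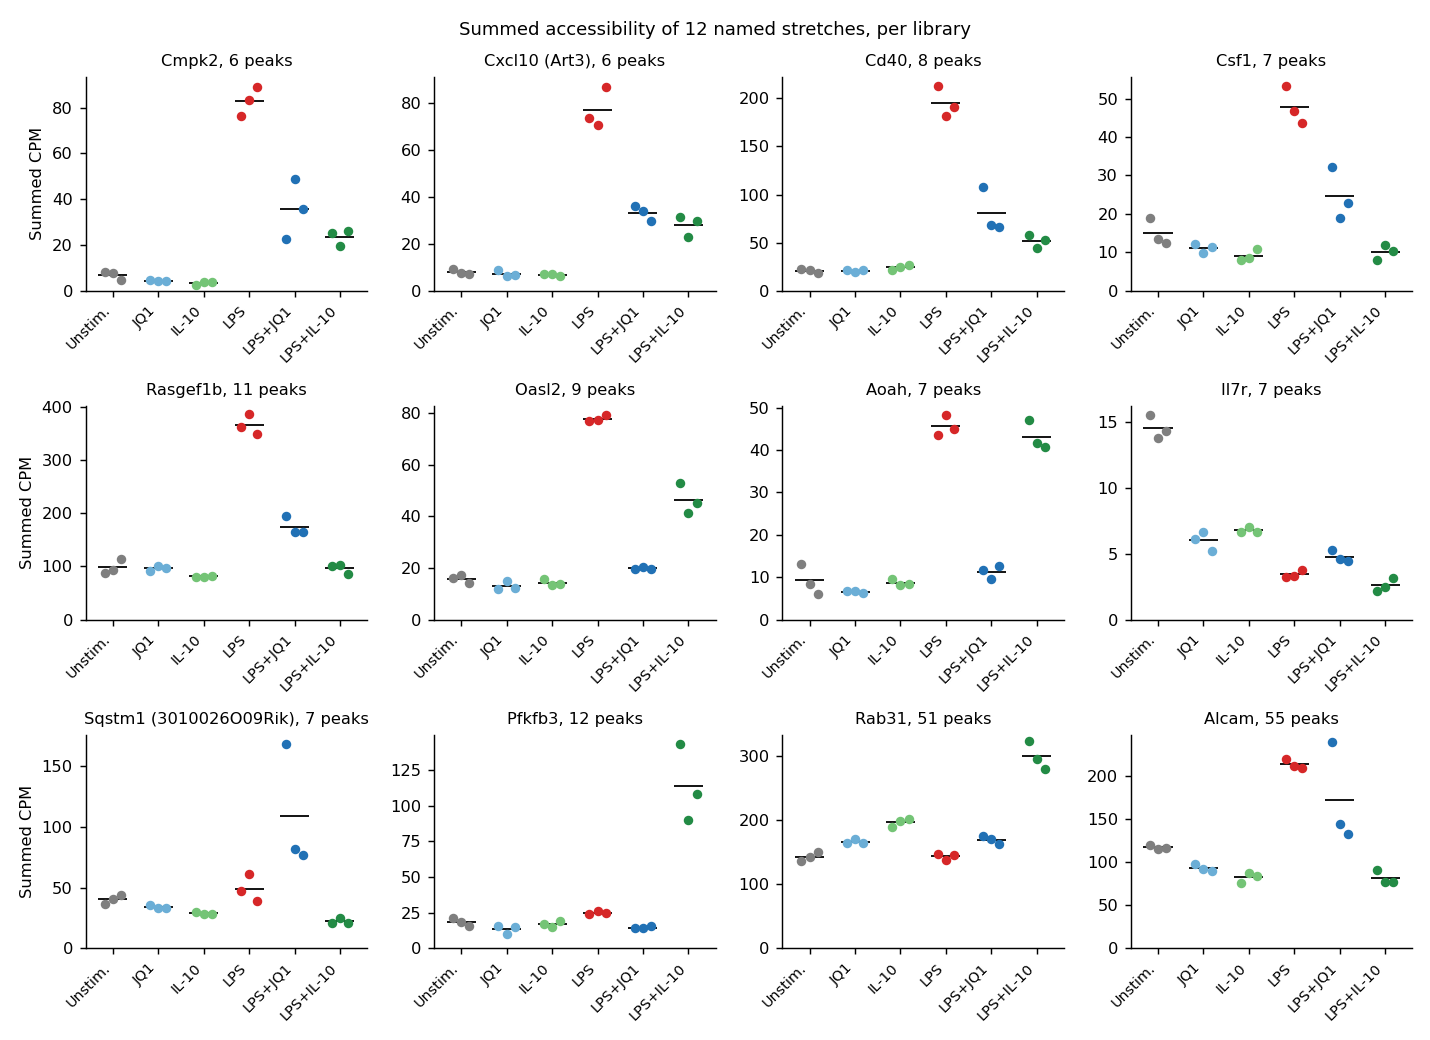
Summed CPM (y axis, each panel on its own scale from 0) of 12 named clusters in every library, by condition, with a line at each mean of 3. Cmpk2, Cxcl10 and Cd40 rise with LPS and lie lower with either inhibitor, Aoah and Oasl2 fall most with (+)-JQ1, and Pfkfb3 and Rab31 are highest with LPS + IL-10.

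Without LPS, the clusters that (+)-JQ1 raised most were those at Sepp1 and Hist1h4j. The cluster at Ccdc152 and Sepp1, the selenoprotein P gene (chr15:3226883-3245321, 12 peaks), went from 31.7, 31.5 and 43.4 to 67.3, 87.9 and 80.0 CPM (log2 fold-change 1.14 ± 0.11 SE, FDR 1.46e-12), and LPS took it to 10.8, 10.9 and 11.6 CPM. Besides Il7r, (+)-JQ1 lowered the cluster at Dock8, an exchange factor needed for leukocyte migration (chr19:25265141-25286202, 12 peaks), from 42.4, 37.6 and 42.7 to 21.8, 20.6 and 19.4 CPM (log2 fold-change -0.99 ± 0.12 SE, FDR 4.48e-09). IL-10 alone raised the cluster at Il21r, a cytokine receptor gene (chr7:132726121-132745256, 9 peaks) from 50.4, 54.1 and 58.2 to 133, 133 and 145 CPM (log2 fold-change 1.34 ± 0.09 SE, FDR 6.42e-22). Il21r was also higher with LPS + IL-10 (171, 153 and 139.9 CPM) than with LPS (86.3, 80.4 and 83.8 CPM; 0.89, FDR 2.54e-14). IL-10 alone lowered the cluster at Cd36, a scavenger receptor for oxidised lipid (chr5:17276123-17287946, 9 peaks), from 26.9, 28.9 and 30.8 to 10.1, 10.8 and 9.40 CPM (log2 fold-change -1.52 ± 0.14 SE, FDR 1.85e-14). These changes against Unstimulated kept their direction and their FDR below 0.05 under every scaling tried.

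The 3 clusters with the most peaks lay at Asap1 (56 peaks, 169 kb), Alcam (55 peaks, 109 kb) and Rab31 (51 peaks, 82.7 kb). Alcam, a leukocyte adhesion molecule (chr16:52287763-52397032), held 120.3, 115 and 116 CPM unstimulated and 219.6, 211 and 209 CPM with LPS (log2 fold-change 0.86 ± 0.10 SE, FDR 1.09e-11), with 28 peaks higher and none lower. LPS + IL-10 left 90.5, 77.5 and 77.1 CPM, below the unstimulated libraries (log2 fold-change -1.38 ± 0.10 SE, FDR 4.75e-20), with 45 of 55 peaks lower. LPS + (+)-JQ1 gave 239, 144 and 133 CPM, with replicate 1 above the LPS libraries and the other 2 below them (-0.31, FDR 0.0317, or -0.62, FDR 4.34e-08, without replicate 1).

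Rab31, a vesicle-trafficking GTPase (chr17:66037340-66120041), showed no difference past the threshold with LPS as a whole (136, 143 and 151 CPM against 147, 138 and 146 CPM, 0.004, FDR 0.975), although 3 of its peaks were higher and 14 lower. With LPS + IL-10 it held 324, 295 and 281 CPM (log2 fold-change 1.06 ± 0.08 SE, FDR 1.40e-20), and 48 of 51 peaks were higher. IL-10 alone gave 190.0, 199 and 202 CPM, above the unstimulated libraries (0.46, FDR 5.18e-06, but 0.14, FDR 0.125, by loess). Asap1, a regulator of Arf GTPases (chr15:63973492-64142624), held 295, 316 and 343 CPM unstimulated and 425, 447 and 389.9 CPM with LPS (0.40, FDR 3.75e-06, a difference that loess offsets turned to -0.09, FDR 0.213). LPS + IL-10 gave 287, 293 and 287 CPM (log2 fold-change -0.54 ± 0.07 SE, FDR 6.49e-09), with 25 peaks lower and none higher, and LPS + (+)-JQ1 gave 443, 367 and 366 CPM (-0.10, FDR 0.471, or -0.20, FDR 0.0888, without replicate 1).

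**Figure D4:**
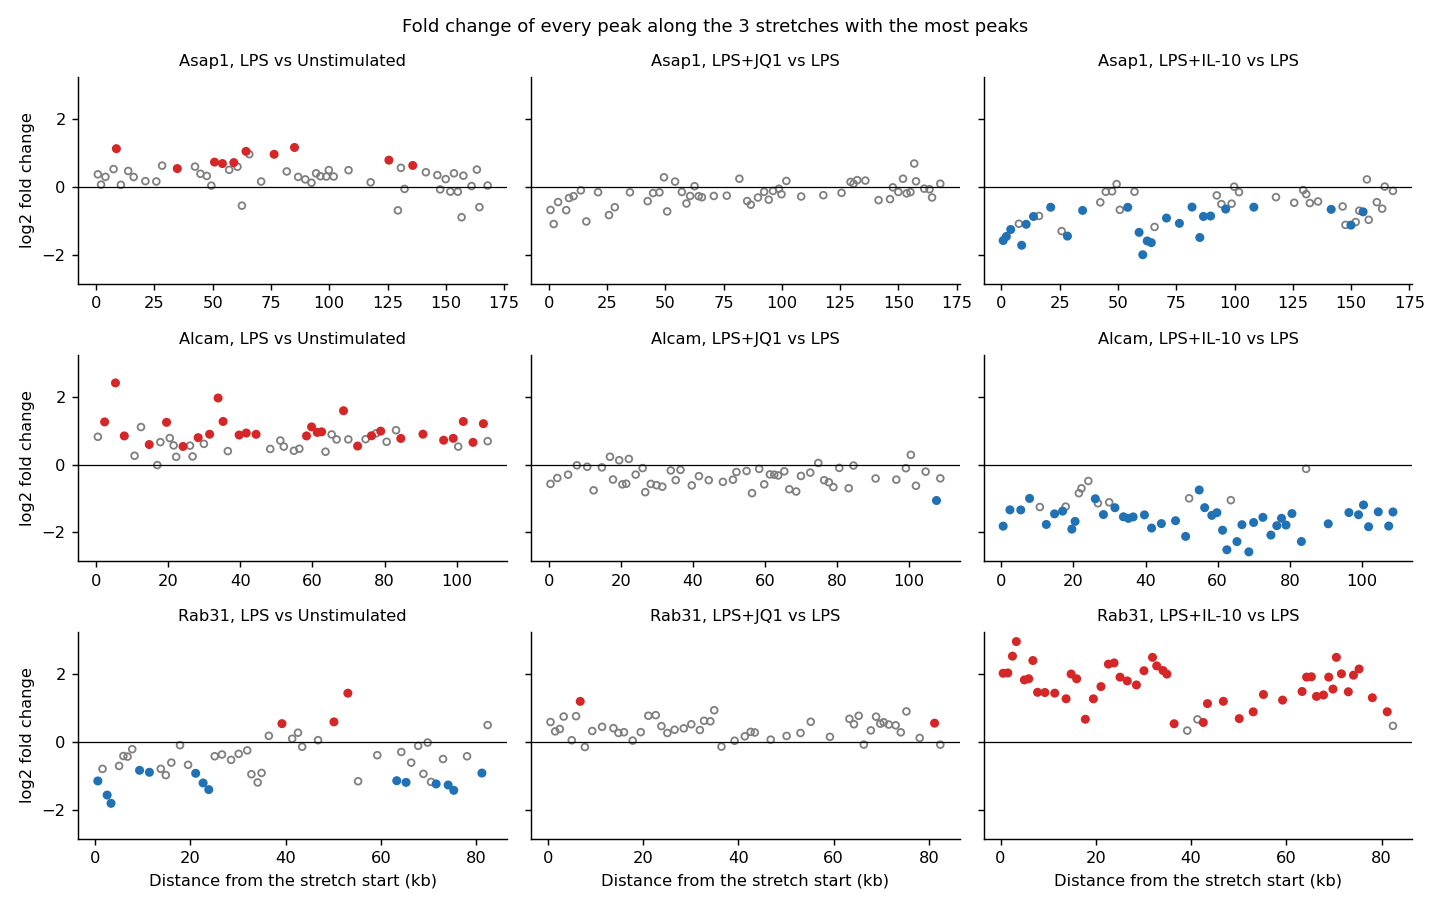
Log2 fold-change of each peak (y axis) against its distance from the start of the cluster in kb (x axis) for Asap1, Alcam and Rab31, in 3 comparisons. Red and blue points are peaks called higher and lower, and open points were not called: with LPS + IL-10, 45 Alcam peaks are lower and 48 Rab31 peaks higher along the whole cluster.

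Most clusters near the listed inflammatory genes opened with LPS. This list and the others below were chosen with earlier results of these data known, so their counts are not independent of that choice. Of 40 annotated inflammatory genes, 29 had their start site within 25 kb of a cluster, 30 clusters in all. LPS raised 23 of the 30 and lowered 1 (median log2 fold-change 1.08, against 0.17 over all clusters, of which 26.6% were higher and 8.49% lower), with 20 and 3 by total counts and 21 and 1 by loess. (+)-JQ1 under LPS lowered 12 and raised none, against 9.17% and 1.65% of all clusters, with 12 or 13 lowered and none raised under each scaling. IL-10 under LPS raised 4 and lowered 6, against 7.49% and 8.58%. Without LPS, where 5.92% of all clusters were higher and 3.77% lower with (+)-JQ1 and 4.24% and 2.92% with IL-10, (+)-JQ1 raised 1 and lowered 2, or none and 6 by total counts, and IL-10 raised 5 and lowered 1, or 3 and 4 by total counts. At Nod2, a sensor of bacterial cell wall fragments (chr8:91175606-91218997, 15 peaks), levels were 94.3, 93.7 and 107 CPM unstimulated, 199, 205 and 198 CPM with LPS (log2 fold-change 1.03 ± 0.08 SE, FDR 1.37e-19) and 151, 149 and 138 CPM with LPS + (+)-JQ1 (log2 fold-change -0.46 ± 0.08 SE, FDR 9.68e-06, short of the fold threshold of a DAR).

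Signalling and transcription factor genes of the LPS response (20 of 38 annotated with a cluster within 25 kb, 30 clusters) rose with LPS in 19 clusters and fell in none, against 26.6% and 8.49% of all clusters, or 11 and 1 by total counts and 11 and none by loess. (+)-JQ1 under LPS lowered 3, a share close to the 9.17% of all clusters, or 5 without replicate 1, and IL-10 under LPS raised 3 and lowered 5, against 7.49% and 8.58%. The cluster at Tmem189 and Cebpb, a C/EBP factor gene (chr2:167519777-167600058, 19 peaks), held 232, 224 and 247 CPM unstimulated and 337, 344 and 336 CPM with LPS (log2 fold-change 0.53 ± 0.07 SE, FDR 7.31e-10, or 0.04, FDR 0.640, by loess). At Fosb, an AP-1 subunit (chr7:19897029-19926999, 14 peaks), levels were 90.9, 98.8 and 115 CPM unstimulated and 137, 125 and 116 CPM with LPS, close to each other in replicate 3 (0.31, FDR 0.00246, or -0.07, FDR 0.493, by loess). For these strong clusters a modest difference from Unstimulated therefore depended on the scaling.

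Macrophage identity genes (23 of 40 annotated, 34 clusters) were mixed. LPS raised 4 of these clusters and lowered 5, against 26.6% and 8.49% of all clusters, or 2 and 11 by total counts and 1 and 13 by loess. IL-10 under LPS raised 9 and lowered 2, against 7.49% and 8.58%, and (+)-JQ1 under LPS raised 2 and lowered 2, against 1.65% and 9.17%, or 5 and 2 without replicate 1. The cluster of Mitf, a transcription factor of the myeloid and pigment lineages (chr6:97761474-97838478, 20 peaks), held 184, 191 and 210.5 CPM unstimulated and 267, 290.1 and 274 CPM with LPS (0.50, FDR 1.64e-08, or 0.05, FDR 0.576, by loess). At Abca1, the cholesterol exporter (chr4:53072059-53171403, 18 peaks), the levels were 158, 167 and 170.3 CPM with LPS and 195, 236 and 220.2 CPM with LPS + (+)-JQ1 (log2 fold-change 0.40 ± 0.07 SE, FDR 8.10e-05, or 0.47, FDR 3.99e-06, without replicate 1). Both values were short of the fold threshold of a DAR, as was the fall with LPS (-0.43, FDR 2.36e-06). The rise with LPS + IL-10 against LPS was larger (0.88, FDR 1.67e-16). 

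Clusters at genes of the IL-10 and STAT3 response (9 of 16, 13 clusters) were higher with LPS in 7, with IL-10 in 5 and with IL-10 under LPS in 4, and none was lower in these comparisons, against 26.6%, 4.24% and 7.49% of all clusters higher. Total counts and loess left 5 and 3 higher with LPS, and loess left 4 higher with IL-10. The 2 strongest were at Tnfrsf1b and Socs3. Tnfrsf1b, a TNF receptor (chr4:144788005-144832398, 17 peaks), held 157, 185 and 229 CPM unstimulated, 342, 325 and 289 CPM with LPS (log2 fold-change 0.75 ± 0.09 SE, FDR 6.38e-11) and 339, 256 and 251 CPM with LPS + (+)-JQ1 (-0.18, FDR 0.253, or -0.33, FDR 0.00933, without replicate 1). Socs3, which encodes an inhibitor of STAT3 signalling and was also on the inflammatory list, had 18 peaks (chr11:117789133-117828493), with 99.1, 95.4 and 109 CPM unstimulated, 213, 225 and 227 CPM with IL-10 (log2 fold-change 1.13 ± 0.08 SE, FDR 1.24e-20) and 227, 215 and 218 CPM with LPS (log2 fold-change 1.12 ± 0.08 SE, FDR 2.32e-22).

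Peaks of 1 cluster usually changed the same way. Of the 1724 clusters with at least 2 peaks called for LPS, 1003 had only higher calls, 495 only lower and 226 both, so 86.9% were in one direction. Under LPS the share was 96.5% of 490 clusters for (+)-JQ1 (88 higher, 385 lower, 17 both) and 94.8% of 784 for IL-10 (390, 353 and 41). It was 71.2% of 744 for (+)-JQ1 alone and 77.2% of 570 for IL-10 alone. Calls of unequal direction raise these shares by themselves: of all clustered-peak calls, 68.6% were higher for LPS. The share of higher calls was 20.1% and 49.2% for (+)-JQ1 and IL-10 under LPS, and 57.0% and 62.2% without LPS. No share expected from the calls alone was computed, and smaller stretches were not compared. In 65 clusters LPS raised every peak and in 9 it lowered every peak. The SD of log2 fold-changes with LPS within a cluster had a median of 0.418, against 0.737 over all clustered peaks. The values were 0.321 against 0.502 and 0.321 against 0.565 for (+)-JQ1 and IL-10 under LPS, and closer without LPS, at 0.390 against 0.454 and 0.369 against 0.450.

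Likeness between neighbours fell with distance. Over the 26291 pairs of neighbouring clustered peaks, Pearson's r of the log2 fold-changes was 0.673 for LPS, 0.572 and 0.665 for (+)-JQ1 and IL-10 under LPS, and 0.221 and 0.291 for (+)-JQ1 and IL-10 alone. Over all distal neighbours, r for LPS was 0.623 at gaps of 1 to 500 bp and 0.183 beyond 20 kb. These are descriptions: neighbouring peaks share libraries, depth and local base composition, and weak peaks add counting noise.

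**Figure D5:**
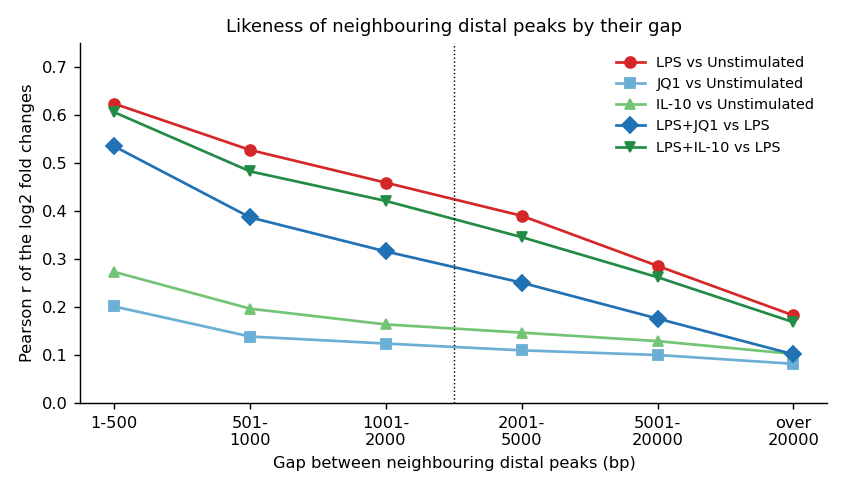
Pearson's r between the log2 fold-changes of neighbouring distal peaks (y axis) by the gap between them (x axis, bp), 1 line for each of the 5 comparisons, with the joining limit of 2000 bp dotted. For LPS, r falls from 0.623 at gaps up to 500 bp to 0.183 beyond 20 kb.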

How the data were processed

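The labels describe BMDMs of 3 Il10-/- mice in 6 conditions, with replicates numbered 1 to 3 that no source used here ties to a mouse. The authors aligned paired reads to mm9 (Bowtie2, through PEPATAC v0.9.0 per the study's methods), kept uniquely mapped pairs, called peaks with MACS2 in each library, merged them to a union of 194284 peaks, split it into promoter and distal peaks (ChIPseeker) and deposited raw read counts per peak. The counting tool is not given in the sources used here. Columns matching no sample (6) were not used.

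Coordinates were made 1-based, and genes came from the GENCODE coding models of the same build (22380 genes). Counts were fitted with edgeR 4.0.16 in R 4.3.3 (TMM, filterByExpr, quasi-likelihood test, all 18 libraries in 1 fit without a block), for 194230 peaks and again for counts summed over 84207 joined stretches of every size, with Benjamini-Hochberg FDR over all rows. CPM are counts over TMM-scaled library size, and a cluster's CPM is the sum over its peaks. Depth was 12020526 to 25908198 counts in peaks, and peaks at the lowest levels have the widest counting error. Features were computed with Python 3.11.15, pandas 2.3.3 and pysam 0.24.0. Named clusters were the 3 with the most peaks, those with the largest rise and fall in each comparison (3 each way with LPS, 2 each way for each inhibitor alone) with FDR under 0.05 whose 3 same-numbered library pairs moved alike, and up to 2 with the highest CPM near genes of each list. One cluster chosen by this rule is not reported here. The members and lists were chosen with earlier results of these data known.

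Tested on simulated data, the fits recovered 148 of 200 peaks and 158 of 200 stretches changed by 1.5 on the log2 scale for LPS against Unstimulated, with 7 and 5 unchanged ones called. The simulation set every group at its Unstimulated mean, with the spread between replicates taken from the fitted trend. It held equal numbers of rises and falls and no shift in composition, so it does not give the number of wrong calls in the real fits. All libraries of replicate 1 were run on sequencing lane 5 and all of replicate 3 on lane 6, while for replicate 2 those with LPS were on lane 6 and the others on lane 5, so that for replicate 2 lane and LPS cannot be told apart. Alternatives were DESeq2 1.42.0, other scalings and filters, FDR under 0.01, a replicate block, each replicate number left out, and other joining rules. Loess offsets and leaving out 1 LPS + (+)-JQ1 library were added after seeing the data.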

Additional observations from a re-analysis of the deposited data

Results flagged for a closer look

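In 31 cases the effect of an inhibitor on a named cluster with LPS differed from its effect without LPS, by the interaction term of the edgeR fit over all stretches (log2 of the ratio of fold-changes, each with an FDR below 0.05 and a size above 0.5). In 5 more the FDR passed but the size did not: for (+)-JQ1 Socs3 (-0.41, FDR 0.0246), Tnfrsf1b (-0.48, FDR 0.0252) and Mitf (-0.38, FDR 0.0279), and for IL-10 Il21r (-0.45, FDR 0.00995) and Abca1 (0.42, FDR 0.00600). Over all clusters, 1.71% had a higher and 6.66% a lower term for (+)-JQ1, and 5.72% and 10.1% for IL-10. Many named clusters were chosen for large changes in comparisons that are parts of these terms. The numbers passing among them therefore follow in part from that choice. Groups of 3 libraries were not tested for an outlying one.

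For (+)-JQ1 there were 14. Its effect was more negative with LPS at Oasl2 (-1.69), Aoah (-1.53), Gbp9 (-1.38), Cd40 (-1.28), the Cxcl10 cluster in Art3 (-1.05), Rasgef1b (-1.04), Nod2 (-0.74) and the Sepp1 cluster in Ccdc152 (-0.63). It was more positive at Il7r (1.74), the Sqstm1 cluster in 3010026O09Rik (1.39), Fam82b (1.21), the first Gm5150 cluster (1.19), Dock8 (0.83) and Gm10521 (0.79). At Il7r (+)-JQ1 lowered the cluster without LPS (-1.28), while its change under LPS did not pass (0.47, FDR 0.116). LPS alone lowered that cluster as well (-2.08), and the part of its low level under LPS in the term was not tested. By total counts Ccdc152 no longer passed (-0.36, FDR 0.140), nor did it by loess (-0.48, FDR 0.0791) or without replicate 1 of LPS + (+)-JQ1 (-0.53, FDR 0.0733). Without that library 3010026O09Rik went from 1.39 to 0.94 (FDR 1.05e-05), and the other 12 kept an FDR below 0.05.

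For IL-10 there were 17. Its effect was more negative with LPS at Cd40 (-2.15), Rasgef1b (-1.64), Csf1 (-1.54), the Cxcl10 cluster in Art3 (-1.20), Alcam (-0.88), Cmpk2 (-0.82), Socs3 (-0.76), Nod2 (-0.71), 3010026O09Rik (-0.65), Oasl2 (-0.60) and Asap1 (-0.55). It was more positive at the first and second Gm5150 clusters (2.45 and 2.42), Pfkfb3 (2.31), Cd36 (1.14), Gm10521 (0.84) and Rab31 (0.60). By total counts 3010026O09Rik (-0.38, FDR 0.177), Cmpk2 (-0.54, FDR 0.127) and Oasl2 (-0.33, FDR 0.132) no longer passed, and by loess 3010026O09Rik did not (-0.46, FDR 0.110). Each term uses the Unstimulated and LPS libraries, so the values for the inhibitors are not independent of each other.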

How the results depend on the processing

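With the TMM scaling and an FDR of 0.05 as the base, 277 of 383 alternative values of the counts and shares moved by less than 1.5 times (or less than the spread, for shares) and 106 moved further. All 318 alternative values for the changes by which clusters were named kept their direction and their side of the threshold. Those changes were chosen as the largest with an FDR below 0.05 and a shared direction, so this follows in part from the choice. Other values of named clusters lost their direction or an FDR below 0.05 under other scalings, such as Tmem189 with LPS by loess (0.04, FDR 0.640). Adding the replicate number to the fit as a replicate block moved no count by over 1.5 times (5649 clustered peaks higher with LPS and 2247 lower with LPS + (+)-JQ1). The numbers were not shown to pair the libraries: deviations from group means correlated by 0.0064 on average over 45 same-numbered pairs (highest 0.069) and by -0.0032 over 90 others, and 10 of 18 libraries correlated best with their own number. Without replicate 1 of LPS + (+)-JQ1, 567 clustered peaks were higher and 2254 lower, and 60 and 367 clusters. The counts that moved by over 1.5 times follow, and the cause was not tested except where another value bears on it. DESeq2 in place of edgeR, a change of test and scaling, gave, of clustered peaks, 873 lower for (+)-JQ1 and 1275 lower for the (+)-JQ1 interaction. DESeq2 in place of edgeR, a change of test and scaling, gave, of clusters, 85 lower for (+)-JQ1. Scaling by total counts gave, of clustered peaks, 3706 higher and 4944 lower for LPS, 385 higher and 5425 lower for (+)-JQ1, 493 higher and 2720 lower for IL-10, 944 higher and 275 lower for the (+)-JQ1 interaction and 2834 higher and 696 lower for the IL-10 interaction. Scaling by total counts gave, of clusters, 534 higher and 572 lower for LPS, 6 higher and 696 lower for (+)-JQ1, 31 higher and 359 lower for IL-10, 380 higher and 62 lower for the (+)-JQ1 interaction and 643 higher and 92 lower for the IL-10 interaction. A filter of at least 10 counts in every library gave, of clustered peaks, 1107 higher and 2052 lower for (+)-JQ1, 925 higher for IL-10 and 427 higher for the (+)-JQ1 interaction. A filter of at least 10 counts in every library gave, of clusters, 62 higher and 288 lower for (+)-JQ1, 67 higher and 198 lower for IL-10, 122 higher for the (+)-JQ1 interaction and 326 higher and 211 lower for the IL-10 interaction. Fitting the distal table on its own gave, of clustered peaks, 612 lower for (+)-JQ1, 608 lower for IL-10, 100 higher for the (+)-JQ1 interaction and 672 higher for the IL-10 interaction. An FDR under 0.01 gave, of clustered peaks, 1501 lower for LPS, 487 lower for (+)-JQ1, 266 lower for IL-10, 324 higher for LPS + (+)-JQ1 against LPS, 1364 higher for LPS + IL-10 against LPS, 56 higher and 254 lower for the (+)-JQ1 interaction and 414 higher and 804 lower for the IL-10 interaction. An FDR under 0.01 gave, of clusters, 28 higher and 141 lower for the (+)-JQ1 interaction. Loess offsets gave, of clustered peaks, 337 higher for (+)-JQ1, 423 higher and 632 lower for IL-10, 343 lower for the (+)-JQ1 interaction and 762 lower for the IL-10 interaction. Loess offsets gave, of clusters, 536 higher and 542 lower for LPS, 9 higher and 432 lower for (+)-JQ1, 24 higher and 318 lower for IL-10, 37 higher for LPS + (+)-JQ1 against LPS, 182 higher and 83 lower for the (+)-JQ1 interaction and 409 higher and 139 lower for the IL-10 interaction. Leaving out each replicate number in turn, or replicate 1 of LPS + (+)-JQ1, gave, of clustered peaks, 1427 to 2075 lower for LPS, 296 to 1132 lower and 515 to 2328 higher for (+)-JQ1, 344 to 2270 higher and 135 to 846 lower for IL-10, 15 to 229 higher and 37 to 976 lower for the (+)-JQ1 interaction, 198 to 664 higher and 209 to 1343 lower for the IL-10 interaction, 188 to 567 higher and 1108 to 2254 lower for LPS + (+)-JQ1 against LPS and 1251 to 1436 higher and 1172 to 1706 lower for LPS + IL-10 against LPS. Leaving out each replicate number in turn, or replicate 1 of LPS + (+)-JQ1, gave, of clusters, 114 to 432 higher and 65 to 199 lower for (+)-JQ1, 49 to 134 lower and 121 to 325 higher for IL-10, 8 to 62 higher and 40 to 281 lower for the (+)-JQ1 interaction and 76 to 161 higher and 102 to 398 lower for the IL-10 interaction. With at least 8 peaks per cluster the share of distal counts differed by 2.47 points for LPS, 0.055 for (+)-JQ1 and 0.23 for IL-10, and with gaps of at most 1000 bp by 2.51 points for LPS. The rule itself gave 14175 peaks in 1761 clusters at a gap of 1000 bp, 44220 in 4733 at 3000 bp, 39111 in 5278 with at least 5 peaks and 18396 in 1624 with at least 8. With DESeq2 size factors in edgeR alone, (+)-JQ1 lowered 86 clusters and 1068 clustered peaks, and 878 clustered peaks were lower for its interaction. LPS raised 4.74% of clustered peaks in the weakest of 4 classes of level (median log2 fold-change -0.07) and 33.7% in the strongest (0.25), and the part of depth in this was not tested.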

Other observations

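Other clusters of the gene lists were looked at after their values were seen, and are given as log2 fold-changes of summed counts by edgeR. Clusters at genes of NF-kappaB and IRF proteins differed in how they changed with IL-10 under LPS. The cluster of 21 peaks at Rel was 1.69 with LPS and -1.02 with IL-10 under LPS, and 0.12 with (+)-JQ1 under LPS (FDR 0.470, which did not pass). Both clusters at Nfkb1 behaved likewise (1.60 and 1.80 with LPS, -1.42 and -1.22 with IL-10), with -0.33 and -0.51 for (+)-JQ1, and so did both at Irf1 (2.22 and 1.19, then -1.29 and -1.03), with -0.85 and -0.45 for (+)-JQ1. At Relb the cluster of 10 peaks was 0.55 with LPS and -0.04 with IL-10 under LPS (FDR 0.860), and at Irf8 the cluster of 7 was 0.51 and -0.38, short of the fold threshold. The other cluster at Relb, of 6 peaks, did not pass with LPS (-0.36, FDR 0.101), nor did that of 13 peaks at Irf8 (0.14, FDR 0.204). Neither passed with IL-10 under LPS (FDR 0.750 and 0.588). Rises of about 0.5 from Unstimulated depended on the scaling at other clusters, such as Tmem189. Il1a, the interleukin 1 alpha gene, was 2.33 with LPS, -1.73 with (+)-JQ1 and -1.66 with IL-10 under LPS. Nos2, which encodes inducible nitric oxide synthase, was 1.58 with LPS and -0.90 with (+)-JQ1, and -0.005 with IL-10 under LPS (FDR 0.983). The cluster at the chemokine gene Ccl5 was 1.97 with LPS, -0.03 with (+)-JQ1 (FDR 0.924) and -0.22 with IL-10 (FDR 0.141).

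At adhesion and scavenger receptor genes, 26 peaks at Itga4 rose with LPS (0.80) and fell with (+)-JQ1 (-1.08) and IL-10 (-0.93) under LPS, while 26 peaks at Itgam, an integrin subunit of macrophages, were 0.01 with LPS (FDR 0.924) and 0.91 with IL-10 under LPS. At Msr1, a scavenger receptor, 24 peaks were 0.63 with LPS and 0.71 with IL-10 under LPS. The 2 clusters at Emr1 went in opposite directions with IL-10 under LPS (0.82 and -0.52).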
